A study of Mus musculus with 8 samples.

Results

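The genes for cytosolic ribosomal proteins were examined in CD8+ T cells sorted from mouse melanomas. A gene was a member if its deposited name began with Rpl or Rps followed by a digit, P or A, apart from the S6 kinase genes. The rule found 83 of 25697 probes and 64 of 17831 gene names, with 25 small-subunit genes, 31 large-subunit genes and 7 paralogs. It also found Rps19bp1, whose product binds the protein of Rps19 and is no part of the ribosome. A member was represented by its brightest probe, and 55 members were tested, out of 7894 tested genes in all, because its probe was above background (detection p under 0.05) on 2 or more arrays. These were 23 small-subunit genes, 27 large-subunit genes, 4 paralogs and Rps19bp1. The levels are log2 intensities after background correction and quantile normalization, and a change is a difference of 2 population means on that scale.

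The cells came from B16.SIY.dsRed tumors, a melanoma line carrying the model antigen SIY and a red fluorescent protein. The tumors had grown for 14 days on both flanks of female C57BL/6 mice. The labels give 10 pooled mice for every sample of both experiments. The gate used 4-1BB, a costimulatory receptor, and LAG3 and PD-1, both inhibitory receptors. All populations were CD8+ tumor infiltrating lymphocytes: 4-1BB+LAG3+ cells (double-positive), 4-1BB-LAG3+ cells (LAG3+), 4-1BB-LAG3-PD-1+ cells (PD-1+) and 4-1BB-LAG3-PD-1- cells (triple-negative). Whether double-positive and LAG3+ cells carried PD-1 is not stated in the labels. With pooled tumors and 1 array per population in each of 2 experiments, a p-value here reflects variation among pools rather than animals. The series title names dysfunctional T cells of the tumor as the subject. The labels do not give the age of the mice.

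The cytosolic ribosome has a small subunit, which decodes the mRNA, and a large subunit, which joins the amino acids. Each ribosomal protein is present about once per ribosome, and the mRNAs of these proteins are among the most abundant of a cell. Many of them begin with a cytosine followed by a run of pyrimidines, the terminal oligopyrimidine or TOP tract, through which the kinase complex mTORC1 controls their translation. T cell activation is known to increase ribosome production. The intensities here measure mRNA and not its translation.

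The bases around the annotated transcript start are shown for 8 members described below, because this tract is the sequence feature the family is known for. The 8 were picked and do not show how common the tract is. Promoter entries of RefSeq (GRCm38.p6) existed for 52 of the 64 members. Those without an entry included Rpl3, Rpl17, Rpl21, Rpl29, Rpl30, Rplp1, Rps4l, Rps14 and Rps27a. Each line runs 5′ to 3′ on the strand of the transcript, with 15 bases before and 15 bases from the annotated start on, and capitals mark a C followed by at least 4 bases that are each C or T and that begins within 5 bases of that start.
Rps6, chr4:86857353-86857382, minus strand: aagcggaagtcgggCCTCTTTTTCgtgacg
Rps21, chr2:180257364-180257393, plus strand: taccgaggacccgCCCTCCTgcccaatagt
Rpl12, chr2:32961697-32961726, plus strand: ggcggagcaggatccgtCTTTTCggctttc
Rpl31, chr1:39367836-39367865, plus strand: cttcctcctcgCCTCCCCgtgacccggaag
Rps27l, chr9:66946071-66946100, plus strand: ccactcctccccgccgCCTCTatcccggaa
Rpl22l1, chr3:28805493-28805522, plus strand: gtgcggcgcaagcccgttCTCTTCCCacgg
Rpl4, chr9:64173372-64173401, plus strand: ttccttttcctgtgggagcagccgggtaga
Rpl6, chr5:121204486-121204515, plus strand: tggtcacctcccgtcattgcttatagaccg

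Such a tract, sought on the transcript's strand only, was present in 25 of the 52 members, or 48.1%, and in 5718 of 27025 genes with an entry, or 21.2%. A gene with several entries counted if any of them held a tract. The last 2 sequences hold none in this window, though those of Rpl4 and Rpl6 each have a run of C and T that begins before it. The annotated start may lie off the true start, so a member without a tract here may still have one. Among tested members the 22 with a tract had a median change of -0.43 in double-positive against triple-negative cells, where the 23 without one had -0.35. In LAG3+ against triple-negative cells these medians were -0.19 with a tract and -0.26 without, and in PD-1+ against triple-negative cells -0.39 and -0.41. No test was made between members with and without the tract.

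Most ribosomal protein mRNAs were detected in all 4 populations. Of the tested members 46 were detected on all 8 arrays, and between 48 and 55 of the 64 members were detected on a given array. Of all probes 6404 and 5522 were detected on PD-1+ arrays 1 and 2, against 6933 to 9044 on the other arrays. The mean intensity before normalization was 123 and 90.9 on the PD-1+ arrays, against 126 to 216 on the others. The brightest probe of an array was a member on 5 of the 8 arrays. It was Rpl23, a large-subunit protein, on LAG3+ array 1 and both PD-1+ arrays, and Rps26, a small-subunit protein at the mRNA exit, on the second arrays of the double-positive and triple-negative cells. Quantile normalization sets the brightest probe of every array to 13.94, so changes at this end of the scale are compressed. The next brightest member by mean level was Rps14, whose loss causes the anemia of the 5q- syndrome in humans, at 13.29. At the dim end stood Rpl14 (4.34), Rps19bp1 (4.38) and Rpl22l1 (4.40), close to the background. Signal depends on the probe as well as on the mRNA, so the order of members by brightness is no order of abundance.

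The arrays differed in the level of the whole family. On triple-negative array 2 the median member stood at 11.32, against 10.27 on triple-negative array 1 and 9.78 to 10.52 on the other 6 arrays. That array had 29 member probes among its 100 brightest, against 18 to 22 on the others. Member signal was 17.6% of all signal above the array median there, and 7.49% to 15.2% on the others, with the highest of these on PD-1+ array 2. Between the triple-negative arrays 39 of 55 members were higher on array 2, by a median of 0.52, while 50.1% of all genes were. The same held for 42 of 55 members between the PD-1+ arrays, by a median of 0.25, with 48.1% of all genes. The standard deviation of replicate differences over members was 0.52 in double-positive, 0.60 in LAG3+, 0.86 in PD-1+ and 0.77 in triple-negative cells. Every comparison with triple-negative cells below therefore depends on which of their arrays is used, and these 3 comparisons share both of them.

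**Figure D1:**
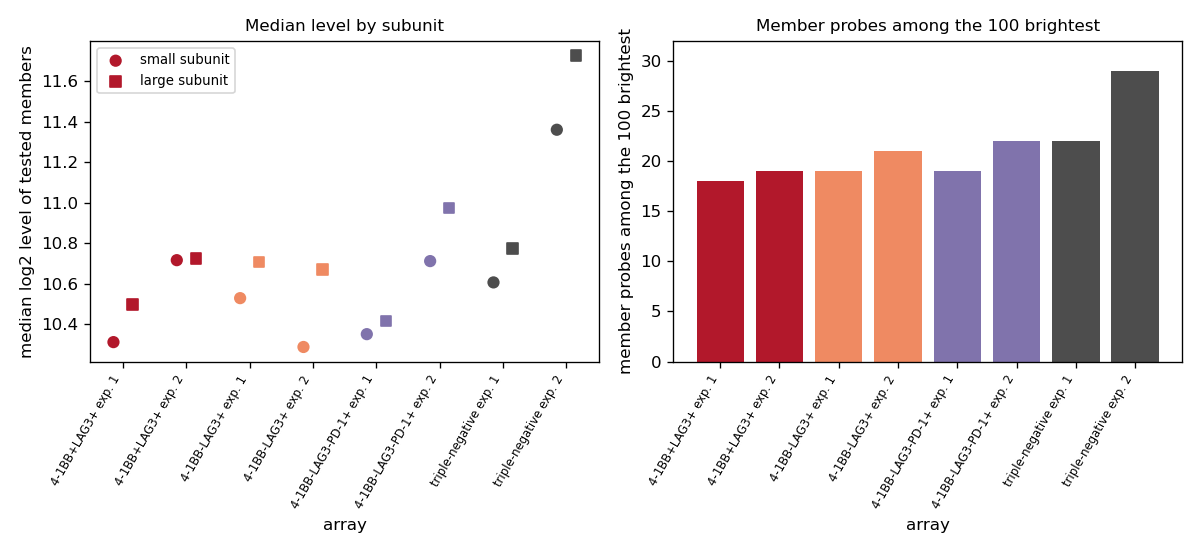
Left, median log2 level of the tested small-subunit (circles) and large-subunit (squares) members on each array; right, number of member probes among the 100 brightest probes of each array, with bars from 0. Colours mark the population and each array is 1 experiment. Triple-negative array 2 stands highest in both panels, with 29 member probes among the 100 brightest, against 18 to 22 on the others.

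Markers of the sorted cells and of others were read on the same arrays. Cd8b1, the CD8 beta chain, and Cd3e, a CD3 subunit, were detected on all 8 arrays, and the Cd8a probe on 0. The summed linear level of 7 melanoma genes was 196 to 2282 in double-positive, 415 to 2187 in LAG3+ and 718 to 4391 in PD-1+ cells, against 98.7 to 127 in triple-negative cells. That of 7 macrophage and monocyte genes was 224 to 761 in PD-1+ cells and at most 137 elsewhere, and that of 6 dendritic cell and class II genes 895 to 1284 in PD-1+ cells and at most 743 elsewhere. For 4 B cell genes it was 247 to 274 in PD-1+ cells and at most 97.2 elsewhere, with Cd79a detected on no array. Cell cycle genes summed to 1130 to 1576 in double-positive, 1249 to 1542 in LAG3+ and 743.5 to 1030 in PD-1+ cells, against 83.0 to 138 in triple-negative cells. The part of these cells or states in the member values below was not tested, and in such sorted samples fewer cells of a type and less RNA per cell cannot be told apart.

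Double-positive cells had lower levels of most ribosomal protein mRNAs than triple-negative cells, by a small margin. Of 55 members 44 were lower and 11 higher, with a median change of -0.35, while the median over all tested genes was -0.01. No member passed the test (limma adjusted p under 0.05), whereas 0.937% of all tested genes did. At an unadjusted limma p under 0.05 stood 7 members, 3 higher and 4 lower, or 12.7%, against 13.6% of all genes. The median was -0.14 in experiment 1 and -0.53 in experiment 2, and -0.67 with cyclic loess. Leaving out triple-negative array 2 gave -0.04, and leaving out array 1 gave -0.57.

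Lower members came from both subunits in this comparison. In double-positive cells 22 of 23 small-subunit genes were lower, with a median of -0.51, and 21 of 27 large-subunit genes, with a median of -0.29. Both medians stayed below 0 under each of 5 other scalings, at -0.86 to -0.42 for the small and -0.66 to -0.26 for the large subunit. Apart from cyclic loess and median centring only, these scalings gave all arrays nearly the same distribution, as the main one did. They thus come close to repeating it. Cyclic loess gave -0.86 and -0.66 for the small and large subunit, and median centring only gave -0.77 and -0.54. Without triple-negative array 2 the small-subunit median was -0.24 with 17 of 23 lower, and the large-subunit median -0.03 with 16 of 27 lower. The difference between the subunits was not tested. Arrays did not overlap for 22 lower members of 55, where 21.7% of all genes were lower without overlap, and for 6 higher members, where 22.6% of all genes were. 

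**Figure D2:**
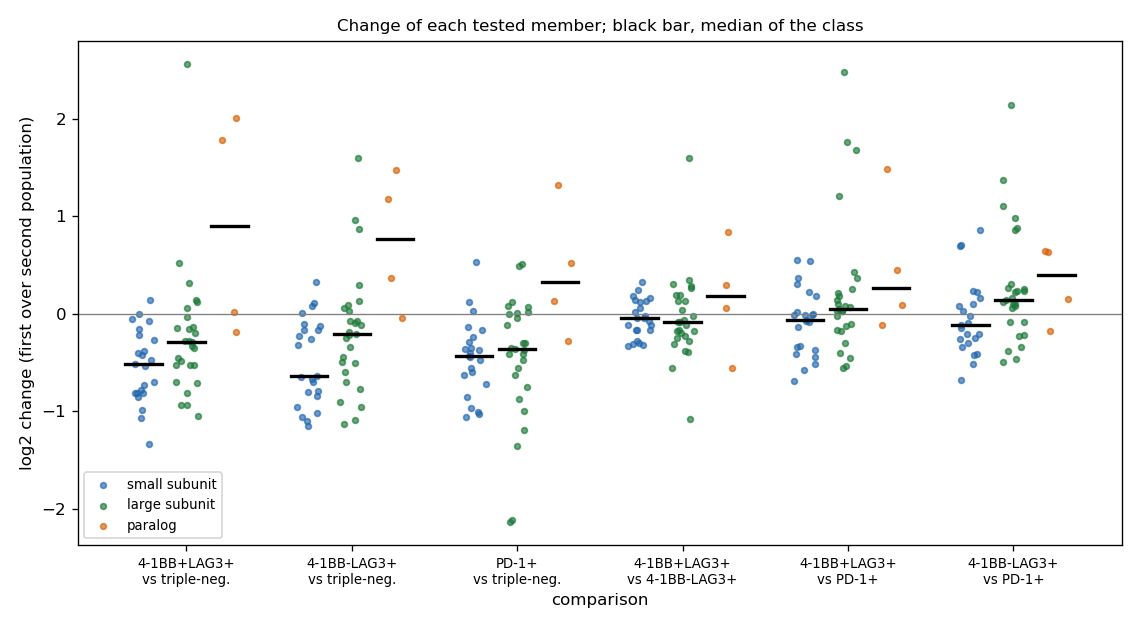
Log2 change of each tested small-subunit, large-subunit and paralog member (points) in the 6 comparisons, the first-named population over the second, with the median of each class as a black bar. Most subunit members lie below 0 in the 3 comparisons with triple-negative cells, with medians of -0.51 and -0.29 in the first, and on both sides of 0 in the other 3.

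Rps27l was the member with the lowest adjusted p in this comparison. It is a paralog of Rps27 whose transcription the tumor suppressor p53 is known to induce. Rps27l measured 10.54 and 10.52 in double-positive, 10.07 and 9.31 in LAG3+, 8.51 and 9.58 in PD-1+ and 8.39 and 8.65 in triple-negative cells. The double-positive arrays were above all others, and the LAG3+ arrays above both triple-negative arrays. The change was 2.01 ± 0.45 (SE, n = 2 each) in double-positive against triple-negative cells, with limma adjusted p = 0.104 (range 0.0417 to 0.564 over all alternatives), higher in both experiments. It passed with array weights (limma adjusted p = 0.0417) and without either or both PD-1+ arrays (limma adjusted p = 0.0448). The change was 1.17 ± 0.45 in LAG3+ and 0.53 ± 0.45 in PD-1+ cells, with limma adjusted p = 0.472 and 0.654, and the value in PD-1+ cells was -0.95 with median centring only. On the array Rps27 itself was deposited under a locus name outside the rule. It averaged 7.34 ± 0.43 in double-positive and 9.45 ± 1.37 in triple-negative cells (SD, n = 2 each), with limma adjusted p = 0.210. The paralog and its parent gene thus had opposite signs here.

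Rpl6, a large-subunit protein, had the highest change of the members. Its probe measured 5.59 and 8.05 in double-positive and 5.21 and 5.24 in LAG3+ cells. In PD-1+ cells it measured 4.14 and 4.54 and in triple-negative cells 4.33 and 4.20, and it was not detected on these 4 arrays. Double-positive array 2 was far above all others, and array 1 was close to the LAG3+ arrays. Double-positive cells were at least 5.11-fold higher than triple-negative cells, a bound set by the lowest detected signal of each array, with limma adjusted p = 0.177. Without double-positive array 2 the fitted change was 1.33, and without array 1 it was 3.79.

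Next among the 11 higher members by the size of the change were Rpl7l1, Rpl21 and Rps19bp1. Rpl7l1, a paralog of Rpl7 that acts in ribosome assembly, measured 7.41 and 7.56 in double-positive, 6.84 and 7.52 in LAG3+, 7.14 and 6.92 in PD-1+ and 6.93 and 4.47 in triple-negative cells. Triple-negative array 2 alone was low, and the change of 1.78 ± 0.74 (limma adjusted p = 0.359) was 0.55 without it. Another Rpl7l1 probe, detected on 7 arrays, differed by -0.24. Rpl21, a large-subunit protein, measured 6.00 and 5.29 in double-positive, 6.22 and 7.20 in LAG3+, 4.22 and 7.0 in PD-1+ and 5.68 and 4.55 in triple-negative cells. These arrays overlapped, and the change of 0.53 ± 0.91 was -0.03 without triple-negative array 2. Rps19bp1 was detected on both double-positive arrays and on neither triple-negative array, so double-positive cells were at least 1.13-fold higher (limma adjusted p = 0.734).

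Among the lower members Rps21, Rps16, Rpl12, Rps15 and Rpl31 had the lowest changes. Rps21, a small-subunit protein, measured 9.46 and 9.83 in double-positive, 9.64 and 10.29 in LAG3+, 9.44 and 10.52 in PD-1+ and 10.61 and 11.36 in triple-negative cells. Both triple-negative arrays were above all 6 others. The change in double-positive cells was -1.34 ± 0.49 (limma adjusted p = 0.298, range 0.116 to 0.779), or -0.96 without triple-negative array 2. Rpl12, a protein at the base of the ribosomal stalk, measured 10.64 and 10.73 in double-positive, 10.88 and 10.67 in LAG3+, 10.74 and 10.97 in PD-1+ and 11.48 and 11.98 in triple-negative cells. Its 6 receptor-positive values lay within a narrow band below both triple-negative arrays. The change was -1.04 ± 0.32 (limma adjusted p = 0.215, range 0.0791 to 0.647), and -0.79 without triple-negative array 2.

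Rpl31, which lies near the exit of the peptide tunnel, showed the same order of arrays. It measured 8.77 and 8.81 in double-positive, 8.69 and 8.51 in LAG3+, 8.41 and 8.66 in PD-1+ and 9.34 and 10.12 in triple-negative cells. The change was -0.94 ± 0.36 in double-positive cells (limma adjusted p = 0.316), and another probe, detected on 7 arrays, differed by -1.71. Rps16, a small-subunit protein, measured 8.72 and 9.10 in double-positive, 9.13 and 8.92 in LAG3+, 8.36 and 9.49 in PD-1+ and 9.53 and 10.43 in triple-negative cells, with a change of -1.07 ± 0.49. Triple-negative array 1 was barely above PD-1+ array 2 for this gene. Rps15, which lies near the decoding site of the small subunit, measured 8.17 and 8.44 in double-positive, 8.16 and 8.13 in LAG3+, 8.96 and 8.68 in PD-1+ and 8.51 and 10.06 in triple-negative cells. Triple-negative array 2 set its change, which was -0.98 ± 0.51 with all arrays and -0.21 without that array.

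**Figure D3:**
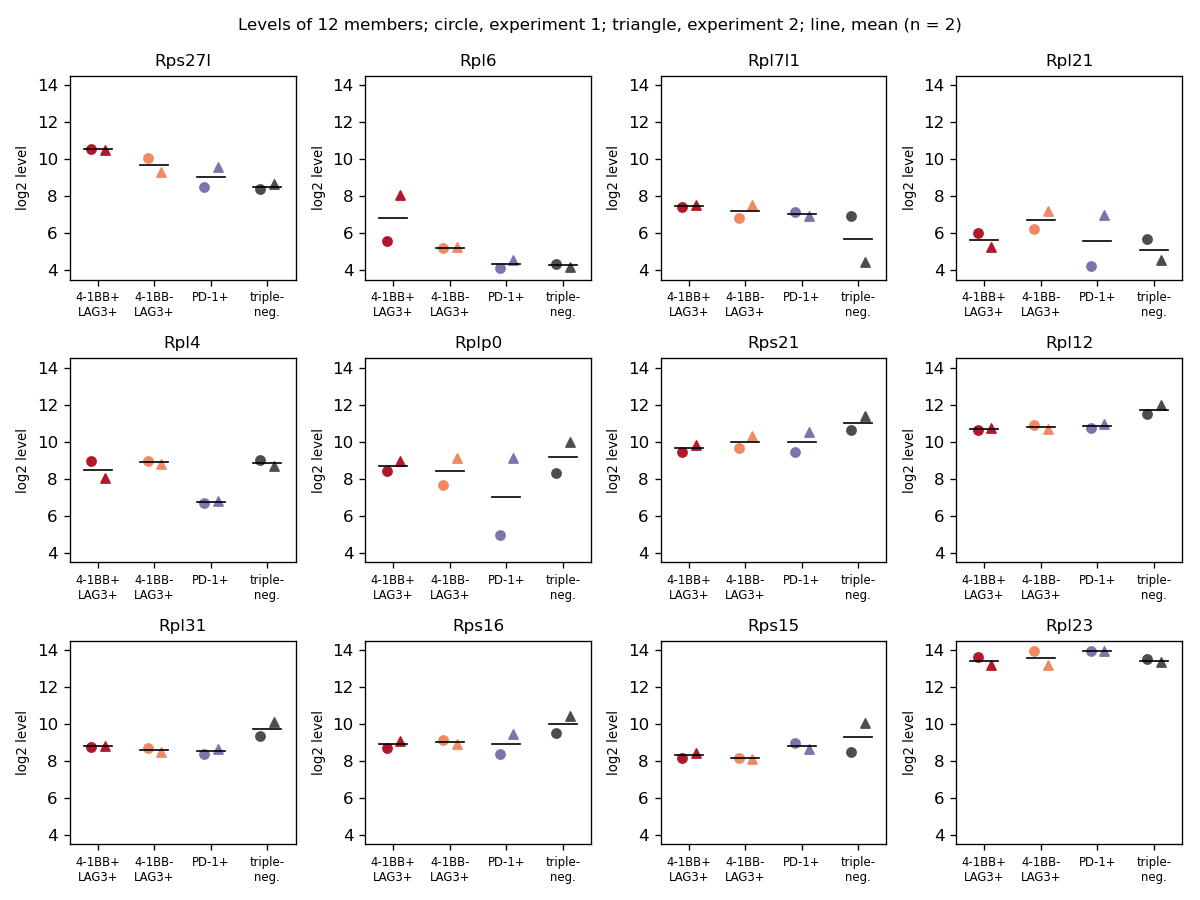
Log2 levels of 12 members in the 4 populations, with circles for experiment 1, triangles for experiment 2 and lines for the mean of 2 arrays. Rps27l stands highest in double-positive cells, Rpl4 is low on both PD-1+ arrays only, and Rps21, Rpl12 and Rpl31 are highest on both triple-negative arrays.

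In LAG3+ cells most ribosomal protein mRNAs were again lower than in triple-negative cells. Of 55 members 39 were lower, with a median change of -0.21, or -0.09 in experiment 1 and -0.32 in experiment 2, and a median over all genes of -0.01. It was -0.53 with cyclic loess and -0.68 with median centring only. No member passed the test, against 0.152% of all genes, and 5 members (9.09%) had an unadjusted limma p under 0.05, against 9.32% of all genes. Small-subunit genes had a median of -0.64 with 19 of 23 lower, and large-subunit genes a median of -0.21 with 19 of 27 lower. Without triple-negative array 2 these medians were -0.25 and 0.06, so the direction of the large subunit turned. For 22 members the LAG3+ arrays lay below both triple-negative arrays (19.6% of all genes), and for 4 they lay above (19.2% of all genes).

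The named members of this comparison were mostly those already described. Rps15 differed by -1.15 ± 0.51, Rpl31 by -1.13 ± 0.36 (limma adjusted p = 0.355, the lowest of the members) and Rpl21 by 1.60 ± 0.91. Without triple-negative array 2 the change was -0.37 for Rps15, -0.74 for Rpl31 and 1.04 for Rpl21. Rps6, the small-subunit protein that S6 kinases phosphorylate downstream of mTORC1, measured 5.75 and 5.81 in double-positive, 5.70 and 5.37 in LAG3+, 5.17 and 6.41 in PD-1+ and 6.35 and 6.92 in triple-negative cells. LAG3+ and double-positive arrays were below both triple-negative arrays, and PD-1+ array 2 was not. The change was -1.10 ± 0.47 in LAG3+ cells (limma adjusted p = 0.541), and -0.82 without triple-negative array 2. Rpl7l1 differed by 1.48 ± 0.74, and by 0.25 without triple-negative array 2.

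PD-1+ cells were set against triple-negative cells as the population with PD-1 alone. Of 55 members 41 were lower, with a median change of -0.36, or -0.31 in experiment 1 and -0.44 in experiment 2. It was -0.22 with cyclic loess and -1.77 with median centring only, which put the median of all genes at -0.72. The median over all genes was -0.04. No member passed the test, against 0.608% of all genes, and 5 members (9.09%), all lower, had an unadjusted limma p under 0.05, against 14.8% of all genes. The small-subunit median was -0.43 with 20 of 23 lower and the large-subunit median -0.36 with 20 of 27 lower. Without triple-negative array 2 they were -0.24 and -0.12. For 17 members the PD-1+ arrays lay below both triple-negative arrays (22.3% of all genes), and for 1 member, Rpl23, they lay above (17.6% of all genes). The PD-1+ arrays are those with the most macrophage, class II and B cell signal, the fewest detected probes and the largest replicate differences.

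Rpl4 was the member that set PD-1+ cells apart from the other 3 populations. This large-subunit protein, with a loop that lines the peptide tunnel, measured 8.98 and 8.02 in double-positive, 8.95 and 8.80 in LAG3+, 6.68 and 6.79 in PD-1+ and 9.01 and 8.68 in triple-negative cells. Both PD-1+ arrays were more than 1 log2 unit below every other array. The change was -2.11 ± 0.39 against triple-negative cells (limma adjusted p = 0.0716, range 0.0630 to 0.319), and it passed under none of the alternatives. Rpl4 was higher by 1.76 ± 0.39 in double-positive against PD-1+ cells (limma adjusted p = 0.109) and by 2.14 ± 0.39 in LAG3+ against PD-1+ cells (limma adjusted p = 0.111). Its 4 population means spread over more standard errors than those of any other tested member, followed by Rps27l and Rpl6. Another Rpl4 probe was detected on no array.

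Rplp0, the stalk protein that anchors P1 and P2, had a change of -2.13 ± 1.31 in PD-1+ cells, which rested on 1 array. It measured 8.44 and 8.96 in double-positive, 7.66 and 9.12 in LAG3+, 4.93 and 9.11 in PD-1+ and 8.30 and 10.01 in triple-negative cells. Without PD-1+ array 1 the change was -0.05, and without array 2 it was -4.22. Rpl27, a large-subunit protein, measured 6.70 and 6.58 in double-positive, 6.58 and 6.00 in LAG3+, 5.55 and 5.31 in PD-1+ and 6.22 and 7.34 in triple-negative cells. Both PD-1+ arrays were lowest, and the change was -1.35 ± 0.44 (limma adjusted p = 0.228), or -0.79 without triple-negative array 2. Rps25, a small-subunit protein known for its role in viral internal initiation, was among the highest with a change of 0.53 ± 0.45, or -0.86 with median centring only. It measured 11.18 and 11.47 in PD-1+ and 10.27 and 11.32 in triple-negative cells, and these arrays overlapped.

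In double-positive against LAG3+ cells the median change was -0.06, or 0.14 with median centring only, with 23 members higher and 32 lower. No member or other gene passed the test (0% of all genes), 0 members had an unadjusted limma p under 0.05, and 2.63% of all genes did. Double-positive arrays lay above both LAG3+ arrays for 7 members (17.2% of all genes) and below for 8 (14.3% of all genes). Rpl6 differed by 1.60 ± 0.72, Rps27l by 0.84 ± 0.45 and Rpl27 by 0.35 ± 0.44. Lowest were Rpl21 at -1.07 ± 0.91, Rpl27a at -0.55 ± 0.44 and Rpl36al at -0.55 ± 0.62, all with limma adjusted p = 1.00. Rpl36al, a paralog of Rpl36a, and Rpl27a each rested on LAG3+ array 2, where they stood at 9.12 and 8.58. Without that array their changes were 0.23 and 0.02.

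Against PD-1+ cells the median change was 0.02 in double-positive and 0.10 in LAG3+ cells, but it turned with the scaling. Cyclic loess gave -0.38 in double-positive and -0.32 in LAG3+ cells, and median centring only gave 1.12 and 0.99, with the median of all genes at 0.67 and 0.55. No member passed, with 0.0507% of all genes called in double-positive against PD-1+ cells and 0.076% in LAG3+ against PD-1+ cells. In the first comparison 4 members (7.27%) had an unadjusted limma p under 0.05, namely Rpl4, Rpl6, Rpl27 and Rps27l, against 14.7% of all genes. The second had 1 such member (1.82%), Rpl4, against 11.5% of all genes.

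Taking the populations side by side, 32 of 55 members were lower in each of the 3 receptor-positive populations than in triple-negative cells (28% of all genes), and 6 were higher in each (25%). The higher ones were Rpl7l1, Rpl13a, Rpl21 and Rps27l, and, by values that were not above background on any PD-1+ or triple-negative array and so have no order there, Rpl6 and Rps19bp1. These counts share the triple-negative arrays in all 3 comparisons. For 39 of 55 members the 4 population means lay within 1 log2 unit. Rpl12, Rpl31 and Rps4x, the last named after its values were seen, had an unadjusted limma p under 0.05 against triple-negative cells in all 3 comparisons. The share of all genes that did so in all 3 was not counted. In single comparisons it was 13.6% for double-positive, 9.32% for LAG3+ and 14.8% for PD-1+ cells, where members had 12.7%, 9.09% and 9.09%. With shared triple-negative arrays the 3 results of a gene are not independent. Rps4x, the X-linked small-subunit gene, measured 10.96 and 10.96 in double-positive, 11.10 and 10.77 in LAG3+, 10.61 and 10.93 in PD-1+ and 11.62 and 11.86 in triple-negative cells. Rpl12, Rpl31 and Rps4x did not pass after adjustment.

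**Figure D4:**
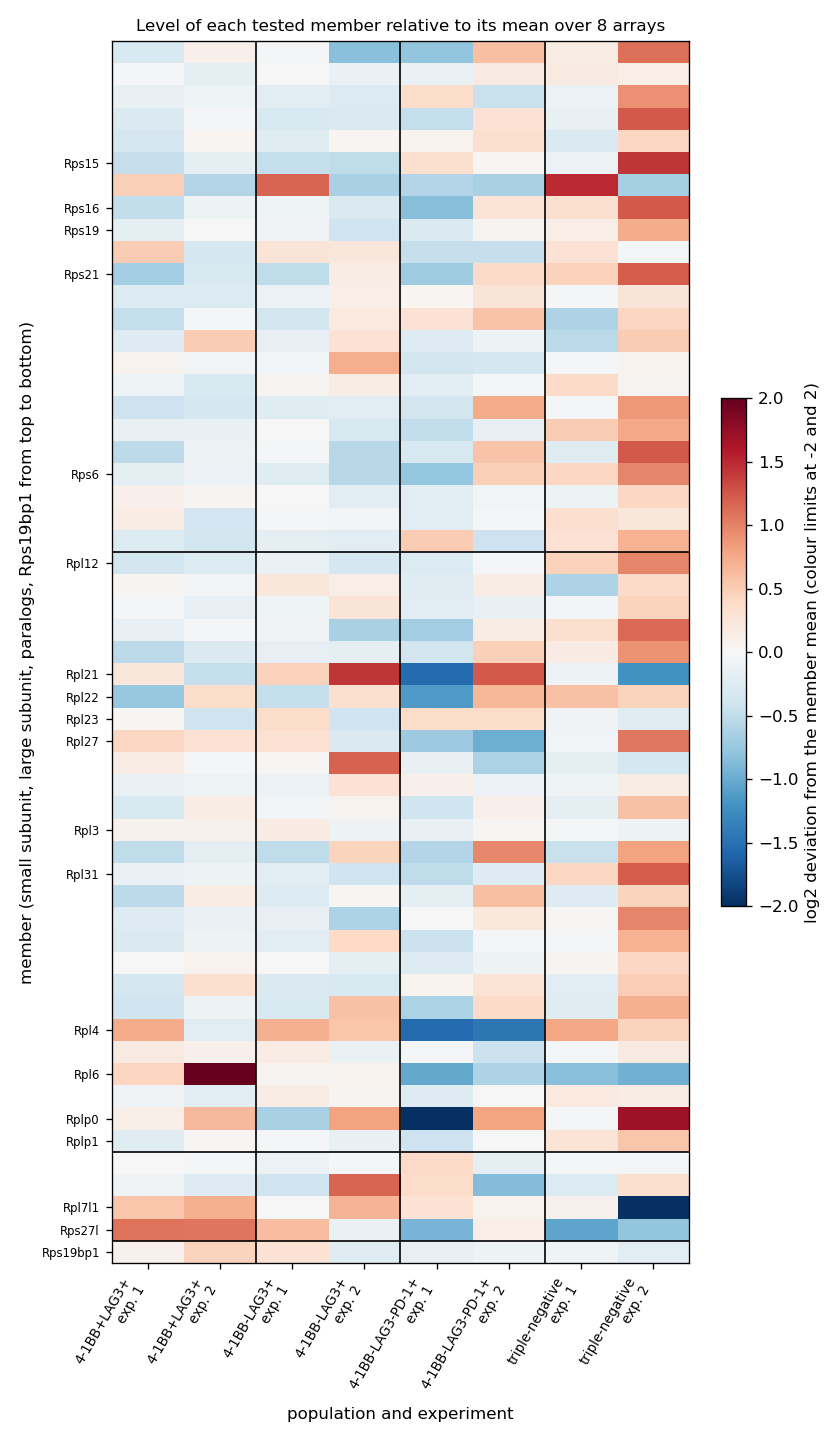
Log2 deviation of each tested member (rows) from its own mean over the 8 arrays (columns, by population and experiment), in blue below and red above the mean. Colours are capped at 2 log2 units, and rows are labelled for members described in the text. Triple-negative array 2 is red for most subunit members, Rpl4 is blue on both PD-1+ arrays, and Rps27l is red on both double-positive arrays.

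Rpl3, at the peptidyl transferase center, measured 13.27 and 13.27 in double-positive, 13.36 and 13.09 in LAG3+, 13.04 and 13.21 in PD-1+ and 13.17 and 13.09 in triple-negative cells. All arrays lay in a narrow band, and the change in double-positive against triple-negative cells was 0.14 ± 0.29. Rps19, mutated in human Diamond-Blackfan anemia, measured 12.59 and 12.76 in double-positive, 12.71 and 12.38 in LAG3+, 12.48 and 12.83 in PD-1+ and 12.91 and 13.51 in triple-negative cells. Both triple-negative arrays were highest, with a change of -0.54 ± 0.35 in double-positive cells. Rps14 differed by -0.21 ± 0.37 there, and Rps3, a protein of the mRNA entry channel, by -0.42 ± 0.31, with -0.99 by its other probe.

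Rplp1, a P protein of the stalk, measured 12.02 and 12.28 in double-positive, 12.22 and 12.12 in LAG3+, 11.84 and 12.25 in PD-1+ and 12.54 and 12.81 in triple-negative cells. Its triple-negative arrays were highest, with a change of -0.52 ± 0.32 in double-positive cells. Rpl38, needed in mice for the translation of Hox mRNAs, differed by -0.16 ± 0.39. Rps27a, made as a fusion with ubiquitin, was dim and differed by 0.00 ± 0.35. It was not detected on the PD-1+ arrays, where the fewest probes of all were detected. Rpl22, which is needed in mice for the development of alpha-beta T cells, measured 6.57 and 7.70 in double-positive, 6.85 and 7.65 in LAG3+, 6.20 and 8.0 in PD-1+ and 7.91 and 7.78 in triple-negative cells. Experiment 1 was lower than experiment 2 in the 3 receptor-positive populations, and the change was -0.71 ± 0.67 in double-positive cells. Its paralog Rpl22l1 was near background on all arrays, between 4.23 and 4.79, and differed by 0.02 ± 0.32.

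Of the 9 untested members 7 were detected on no array, namely Rpl3l, Rpl7a, Rpl17, Rpl39l, Rplp2, Rps23 and Rpsa, and 2 on 1 array, Rpl24 and Rps4l. Rpsa, the laminin receptor and a small-subunit protein, had 2 such probes. Most of these genes are known to be expressed in every cell, so a probe without signal says nothing about their mRNA. Of all members 16 had more than 1 probe. Rps24, Rpl29 and the genes of the next paragraph other than Rpl5, Rpl10, Fau and Rack1 were chosen after their values were seen. Rps24 differed by -0.38 ± 0.30 in double-positive against triple-negative cells by the probe used and by 1.09 by another, detected on 7 arrays. A dimmer Rpl23 probe differed by -0.93, where the probe used differed by -0.03. For Rpl29 the values were -0.28 by the probe used and -1.11 by the other.

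Further ribosomal protein genes stood on the array under locus names and so outside the rule, with 9 probes in all. Set against triple-negative cells, in double-positive cells Rpl35a differed by -0.74 ± 0.47, Rpl23a by -0.73 ± 0.56, Rpl37a by -1.07 ± 0.56 and Rps20 by -0.37 ± 0.33. Rpl10, which joins the large subunit last, differed by -0.37 ± 0.31, and Rpl5, which binds Mdm2 together with 5S rRNA, by 0.03 ± 0.29. Fau, whose product is cleaved to a ubiquitin-like protein and the small-subunit protein of Rps30, differed by -0.68 ± 0.48. Rack1, a scaffold on the small subunit, measured 6.01 and 6.42 in double-positive and 6.13 and 7.62 in triple-negative cells, a difference of -0.66 ± 0.60. None passed limma.

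Other genes of translation were higher about as often as lower in double-positive against triple-negative cells. Of 10 tested genes listed for elongation and termination, Eef1e1 among them by its name only, 6 were higher and 4 lower in this comparison. Their median was 0.11 and none passed the test. Eef1a1, which delivers aminoacyl-tRNA, differed by 0.04 ± 0.38, Eef2, the translocase, by -0.33 ± 0.68 and Eef1e1, a component of the multisynthetase complex, by 1.3 ± 0.44. Of 28 tested initiation factors 17 were higher and 11 lower, with a median of 0.20, and none passed. Eif5, which activates GTP hydrolysis on the small subunit, differed by -1.01 ± 0.50, and Pabpc1, the poly(A) binding protein and itself a TOP mRNA, by -0.59 ± 0.32. Of 8 tested further TOP and related mRNAs 3 were higher and 5 lower, with a median of -0.03. Npm1, a nucleolar chaperone, differed by -0.19 ± 0.35 and Nap1l1 by 1.39 ± 0.42, and Tpt1 was detected on no array. Of 9 tested chaperones and importers of ribosomal proteins, with Nap1l1 counted here again, 6 were higher and 3 lower, with a median of 0.23. Ipo5, an importer, measured 8.22 and 8.13 in double-positive and 6.70 and 5.36 in triple-negative cells, with a change of 2.15 ± 0.88 (limma adjusted p = 0.352). In PD-1+ against triple-negative cells the same lists were mostly lower. Their medians were -0.24 for elongation, -0.18 for initiation, -0.43 for further TOP mRNAs and -0.34 for chaperones and importers. Members had -0.36 there. In LAG3+ against triple-negative cells the medians of these lists were -0.10, -0.03, 0.13 and 0.08.

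Of 10 tested regulators of ribosomal protein mRNAs 5 were higher and 5 lower, and 1 passed. Sesn1, an inhibitor of mTORC1 that p53 induces, measured 5.32 and 5.36 in double-positive, 5.55 and 5.23 in LAG3+, 5.48 and 7.07 in PD-1+ and 8.92 and 8.52 in triple-negative cells. All 6 receptor-positive arrays were below both triple-negative arrays. Sesn1 fell by 3.38 on the log2 scale in double-positive cells (SE 0.53, limma adjusted p = 0.0451, range 0.00811 to 0.298). It missed the threshold when the experiment was added as a block (limma adjusted p = 0.0615), under median centring (0.257), in the authors' values (0.108), with no detection filter (0.136) and without either double-positive array (0.227 and 0.298), either LAG3+ array (0.116 each) or triple-negative array 1 (0.161) or 2 (0.182). Eif4ebp2, a repressor of cap-dependent initiation, differed by -0.84 ± 0.34.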

How the data were processed

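Levels come from a 1-colour Illumina mouse bead array with Cy3 label, per the labels. The authors deposited probe intensities before normalization and, per the file headers, a detection p-value for each. On the authors' normalization and scanner software nothing was given in the sources used here; their normalized intensities served only as an alternative. Limma 3.58.1 (R 4.3.3) processed the intensities by neqc, with negative controls inferred through detection p-values, normexp, an offset of 16, quantile normalization and log2. The offset compresses changes of dim probes. Probes were named through the platform annotation (23903), by accession through RefSeq (1030) or as deposited (764).

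A gene kept its brightest probe and was tested if this probe reached detection p under 0.05 on 2 or more arrays. The 8 arrays entered limma's lmFit and eBayes together, each population having a mean and no block being set, with Benjamini-Hochberg adjustment over 7894 genes within each of 6 comparisons, two-sided, threshold 0.05. The fit had 4 residual and 2.98 prior degrees of freedom. It was tested on simulated data. The number of arrays limits the precision, with a median SE of 0.403 over members and 0.448 over all genes, and an exact test of 2 arrays against 2 cannot go below p = 0.333. No set test was made.

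Where both arrays of a population lacked detection, the probe gave a bound, against the mean over its arrays of the higher of the lowest detected signal and the probe's own.

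Same-numbered arrays come from the same experiment, and their deviations correlated at 0.092 to 0.222. The experiment was therefore also fitted as a block.

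Named members are those past the threshold in any comparison, the 5 highest and 5 lowest changes in double-positive against triple-negative cells, the 3 highest and lowest in 3 other comparisons, the 3 brightest and 3 dimmest, and a list of textbook genes, of which Rpl10a and Rpl11 are not analysed here. Members, lists and this rule were chosen with earlier results of these data known. Other normalizations, filters, weights and left-out arrays were tried. Some members are counted but not reported by name here.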

Additional observations from a re-analysis of the deposited data

How the results depend on the processing

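No member passed the test in any of the 6 comparisons under most settings. The exceptions, all in double-positive against triple-negative cells, were 1 member, Rps27l, with array weights, and 1 without both PD-1+ arrays, a setting chosen after seeing the data. Leaving out 1 array gave 0 to 1 members there (1 without either PD-1+ array) and 0 in the other 5 comparisons. With the replicate block 0 members were called in every comparison. The block cannot change a median, because each population has 1 array in each experiment. Calls over all genes varied more, from 74 to 229 with array weights, 157 with cyclic loess, 0 with median centring only and 80 with the block for double-positive against triple-negative, and from 12 to 0 and from 48 to 28 with the block for LAG3+ and PD-1+ against triple-negative. Over all settings they ranged from 0 to 66 and 0 to 295 in these last comparisons, 0 to 13 for double-positive against LAG3+, and 0 to 378 and 0 to 165 for double-positive and LAG3+ against PD-1+.

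The median member change moved by more than the spread between experiments with cyclic loess (-0.670 in double-positive, -0.528 in LAG3+ and -0.216 in PD-1+ against triple-negative cells, -0.382 in double-positive and -0.317 in LAG3+ against PD-1+ cells). With median centring only it was -0.677 in LAG3+ and -1.77 in PD-1+ against triple-negative cells, 0.139 in double-positive against LAG3+ cells, 1.12 in double-positive and 0.995 in LAG3+ against PD-1+ cells. Median centring also moved the median of all genes in these comparisons, to -0.14, -0.72, 0.12, 0.67 and 0.55. There Rps27l (-0.947), Rps25 (-0.864) and Rpl7l1 (-0.342) turned lower in PD-1+ against triple-negative cells. The cause was not tested.

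Leaving out 1 array put the median at -0.569 to -0.0431 in double-positive, -0.524 to -0.0513 in LAG3+ and -0.614 to -0.106 in PD-1+ against triple-negative cells, the ends being triple-negative arrays 1 and 2. It ranged from -0.0609 to 0.0574 in double-positive against LAG3+, -0.158 to 0.236 in double-positive against PD-1+ and -0.0638 to 0.198 in LAG3+ against PD-1+ cells. Signs turned for Rpl21 (-0.0344 to 1.09) in double-positive and Rps27l (-0.00951 to 1.06) in PD-1+ against triple-negative cells, and for Rpl36al (-1.33 to 0.228) and Rpl27a (-1.13 to 0.0241) in double-positive against LAG3+ cells. A lone array is assumed to vary like the other groups. The signal of dim probes sets the limit for Rpl14, Rpl22l1, Rps19bp1 and Rps27a.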
